A study of Homo sapiens with 6 samples.

Results

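The genes described here are 10 members of the BCL2 family, which decides whether the mitochondrial route to cell death is taken. Open-chromatin sites were assigned to a gene when they overlapped its body or the 50000 bases on either side of it, which gave 193 of the 181135 sites in the deposited count table. The 4 anti-apoptotic genes BCL2, BCL2L1, MCL1 and BCL2A1 held 77 of these sites. The 6 pro-apoptotic genes BCL2L11, BAX, BAK1, BBC3, PMAIP1 and BMF held 116. Position is the only link between a site and a gene here, so a site may act on a neighbour or on no gene.

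The study measured chromatin accessibility by ATAC-seq, in which a transposase cuts and tags open DNA, in K562, an established human leukaemia cell line of wild-type genotype. Cells received 25 nM PMA, an activator of protein kinase C that pushes K562 towards a megakaryocyte-like state, for 0, 6 or 72 h. Each time point had 2 libraries, and all groups came from this single line. The 0 h cells are the control for both later times, so the comparisons at 6 h and 72 h share them. The labels do not say whether the libraries came from separate cultures, so the p-values measure the spread between these libraries, which may be technical.

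The anti-apoptotic proteins hold back the pore-forming effectors BAX and BAK1 at the mitochondrial outer membrane. BH3-only proteins such as BIM (the product of BCL2L11), PUMA (BBC3), NOXA (PMAIP1) and BMF oppose the anti-apoptotic proteins or activate the effectors directly. In the megakaryocyte lineage BCL-XL, the long product of BCL2L1, is the protein best known for keeping platelets alive, with MCL1 acting beside it in megakaryocytes.

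Reads over the listed sites summed to between 12258890 and 35548737 counts per library, the lowest and a high total (33634403) both belonging to 6 h. Values below are CPM, the usual depth-normalised read count, with library sizes scaled by the TMM method. A site was called at an adjusted p under 0.05 in edgeR's quasi-likelihood test over all 177759 sites that passed the count filter. Of the 193 member sites 190 passed it, and 1 site each of BCL2, PMAIP1 and BMF did not. Scaling of the libraries was done in 5 ways, which were compared, because the direction of many calls depends on this choice: over all tested sites the median log2 change at 72 h was 0.29 with TMM and ran from -0.04 with loess offsets to 1.25 with TMM factors taken from sites that had a peak in every library.

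The sites at the gene starts of BCL2A1 and BBC3 opened, while with TMM scaling those of most other members closed. Of the 11 start sites (1 per gene and 2 for BMF), 2 rose and 6 fell at 6 h, and 2 rose and 9 fell at 72 h. Over the 11019 tested start sites of all genes, 4.59% rose and 46.2% fell at 6 h, and 5.18% rose and 84.6% fell at 72 h. The share of falling member start sites was therefore near that of all starts, and BCL2A1 and BBC3 belonged to a small minority. Between 6 h and 72 h, 7 of the 11 fell and none rose at this threshold, against 78.0% falling and 3.09% rising over all starts. BCL2A1 and BBC3 were called higher under all 5 scalings at both times. Lower under all 5 were the starts of BCL2 and BCL2L11 at both times, and those of BAX and the inner BMF start at 6 h.

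**Figure D1:**
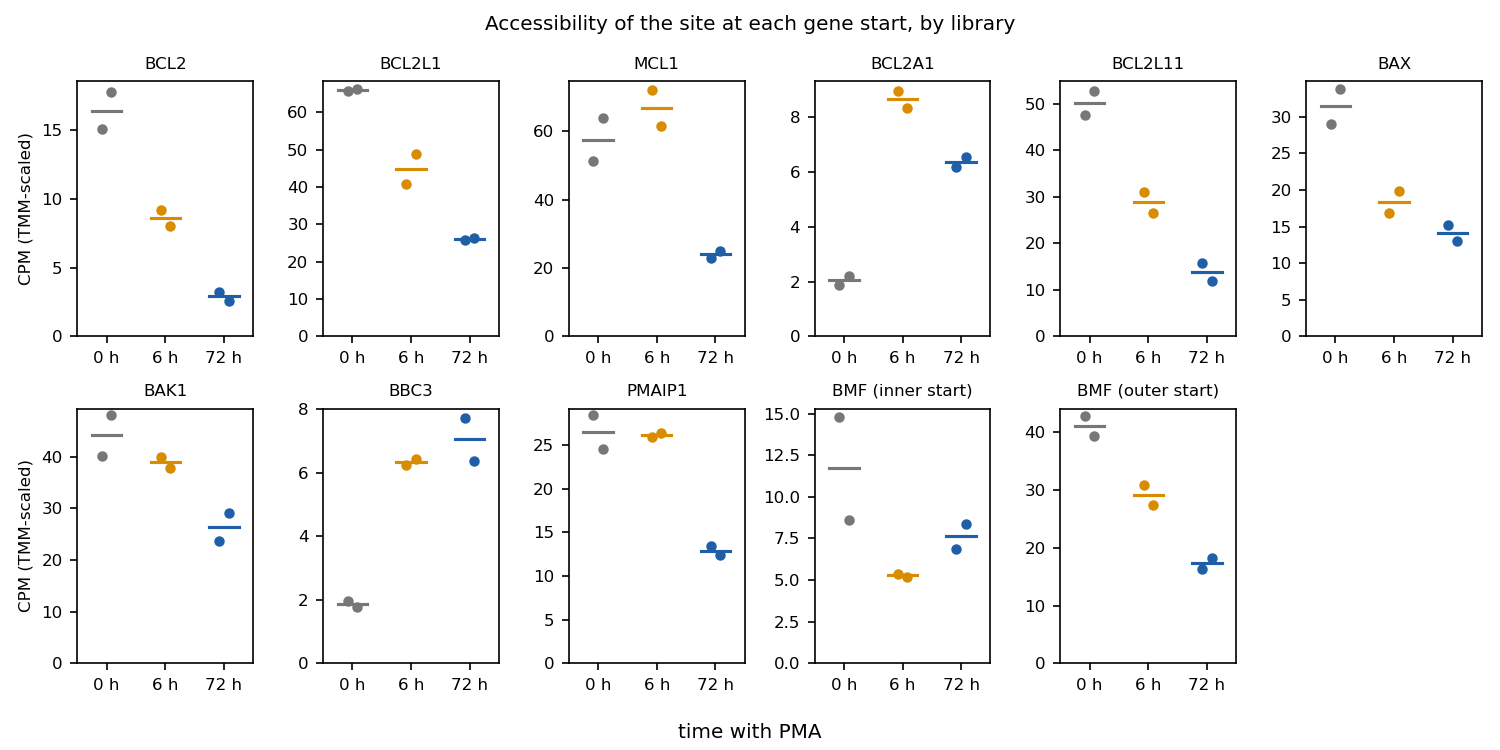
Accessibility at each member's start site. Each panel is 1 site, points are the 2 libraries of a time point, lines are their means, and the vertical axis is TMM-scaled CPM from 0. BCL2A1 and BBC3 are higher in all 4 PMA libraries than in both 0 h libraries. BCL2, BCL2L1, BCL2L11, BAX, BAK1 and both BMF starts are lower in all 4.

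The letters upstream of these starts are shown for the pair that opened and for 1 that closed, because their base composition differed. The first line is the 250 bases before the BCL2A1 start (GRCh38, chr15:79971197-79971446, minus strand). The second is 30 bases of the BBC3 promoter around a match to the AP-1 motif TGANTCA (chr19:47232762-47232791, minus strand), with the match in capitals. The last is the 250 bases before the BCL2L11 start (chr2:111120664-111120913, plus strand), with matches to the GC box GGGCGG in capitals. All are RefSeq promoter sequences of GRCh38.p14, written 5′ to 3′.
BCL2A1: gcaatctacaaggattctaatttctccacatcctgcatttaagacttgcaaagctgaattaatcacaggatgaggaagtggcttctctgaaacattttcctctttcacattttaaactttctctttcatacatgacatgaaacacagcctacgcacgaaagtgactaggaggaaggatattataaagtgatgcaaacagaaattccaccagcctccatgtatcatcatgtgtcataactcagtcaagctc
BBC3: gcactggaaggTGAGTCActctggtgaggc
BCL2L11: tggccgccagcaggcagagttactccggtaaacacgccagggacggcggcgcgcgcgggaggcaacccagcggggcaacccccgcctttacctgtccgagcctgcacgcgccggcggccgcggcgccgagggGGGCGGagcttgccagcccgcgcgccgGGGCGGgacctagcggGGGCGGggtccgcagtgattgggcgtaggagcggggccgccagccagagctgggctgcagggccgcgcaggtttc

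Over the 300-base promoter entries (250 bases before and 50 after the start), BCL2A1 had 41.0% G and C and BBC3 48.0%, which placed them at percentiles 7.43 and 16.5 of 22199 entries. The BCL2L11 entry had 74.7%, PMAIP1 71.3% and BCL2 70.7%, against a median of 62.3%. The inner start of BMF, at 50.3%, and the outer start of BCL2L1, at 52.0%, were also poor in G and C, so low content was not limited to the 2 starts that opened. Among all start sites the same order was seen: the 571 that rose at 72 h had a median of 54.0% and the 9319 that fell 66.5%. The part of base composition in the measured changes was not tested.

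An AP-1 motif on either strand was present in 1 of the 9 members with a promoter entry, BBC3, where it began 113 bases before the start, and in 6.15% of all entries. The GC box on either strand was found in 6 of the 9 members and in 56.3% of all entries, but not in BCL2, BCL2A1 or BBC3. BAX held 4 matches to the E-box CACGTG, at 138, 93, 45 and 14 bases before its start, a motif found in 8.34% of entries, and BBC3 held 1, at 232 bases. The CCAAT box (CCAAT) was found in 5 of the 9 and in 34.7% of entries, and the ETS motif CCGGAAG in 1, BCL2L1, and in 12.8%. The GATA motif AGATAA and the EGR motif GCGTGGGCG, present in 7.91% and 1.05% of entries, had no match in the entries of the 9 members. These matches describe letters only, on either strand.

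BCL2A1 encodes A1 (BFL-1), an anti-apoptotic protein best known as a target of NF-kB in blood cells. Its start site (peak59822, chr15:79970861-79971527) measured 1.88 and 2.20 CPM at 0 h, 8.95 and 8.35 after 6 h, then 6.19 and 6.54 after 72 h. All 4 PMA libraries lay above both 0 h libraries. The site rose by 2.07 ± 0.26 (SE, log2) at 6 h and by 1.63 ± 0.26 at 72 h (edgeR, adjusted p = 1.9e-06 and 1.1e-05), and it was called higher under each of the 5 scalings at both times. Between 6 h and 72 h the difference was -0.44 ± 0.23 and did not pass (edgeR, adjusted p = 0.12). Of all tested sites 23.4% rose and 16.8% fell at 6 h, and 38.2% and 29.2% did so at 72 h. Of the 18 around BCL2A1, 4 rose and 1 fell at 6 h, and 8 rose and 3 fell at 72 h. The site of its window with the highest CPM averaged over the 6 libraries (peak59813), at an end of the read-through gene ST20-MTHFS, had means of 83.4 CPM at 0 h and 30.4 at 72 h with TMM, a fall called under 4 of the 5 scalings, whereas with loess offsets its log2 change was 0.057.

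BCL2, the founding anti-apoptotic gene, had the largest fall of the 11 start sites at 72 h. The site (peak79472, chr18:63319632-63320687) measured 15.1 and 17.8 CPM at 0 h, 9.21 and 8.01 after 6 h, then 3.26 and 2.57 after 72 h. The 3 time points did not overlap. The log2 fold change was -0.95 ± 0.22 at 6 h and -2.50 ± 0.23 at 72 h (edgeR, adjusted p = 0.0014 and 6.2e-09), and the site was called lower under all 5 scalings at both times, with a range of -2.68 to -1.53 at 72 h. The median change of all 11019 start sites at 72 h was -1.31. Inside the long gene body, a site 157844 bases from the start (peak79464) was at 5.85 and 4.59 CPM at 0 h, 15.6 and 15.4 after 6 h, then 7.74 and 8.14 after 72 h. It rose by 1.58 ± 0.22 at 6 h and was then lower at 72 h than at 6 h (log2 fold change -0.97 ± 0.20). Another body site, 119662 bases from the start (peak79468), fell by 1.82 on the log2 scale at 6 h.

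At BCL2L1 the gene start closed and several sites nearby opened. The start site (peak102120, chr20:31722603-31724026) measured 65.7 and 66.3 CPM at 0 h, 40.8 and 48.8 after 6 h, then 25.8 and 26.3 after 72 h. It was called lower at both times with TMM, but its change at 72 h was only -0.01 with loess offsets. A weak site 3638 bases upstream (peak102121, chr20:31727353-31727850) went from 0.455 and 0.813 CPM to 4.01 and 5.51 at 6 h and 5.36 and 4.46 at 72 h. Its log2 fold changes were 2.88 ± 0.37 and 2.90 ± 0.36 (edgeR, adjusted p = 1.8e-06 and 3.8e-07), and it was called higher under all 5 scalings at both times.

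In the BCL2L1 body 3 further sites stood out after their values were seen and lie outside the naming rule. The site 27628 bases into the gene (peak102114) measured 1.56 and 1.53 CPM at 0 h, 7.76 and 13.3 after 6 h, then 11.03 and 9.79 after 72 h, and was called higher at both times under all 5 scalings. The site 24606 bases in (peak102115) was likewise called higher under all of them, with means of 5.94, 13.8 and 13.6 CPM at 0, 6 and 72 h. A strong site near the far end of the gene (peak102110, 48150 bases from the start) fell from 48.7 and 44.4 CPM to 20.1 and 24.3 at 6 h, then measured 36.3 and 38.3 at 72 h. That site fell at 6 h and rose between 6 h and 72 h under all 5 scalings. Over the whole window 5 of 22 sites rose and 11 fell at 6 h, and 6 rose and 10 fell at 72 h. The shares of all tested sites were 23.4% rising and 16.8% falling at 6 h, and 38.2% and 29.2% at 72 h.

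MCL1, an anti-apoptotic gene with a short-lived product, lay among sites that rose at 6 h, of which some were lower again at 72 h and one far upstream (peak12088) stayed near its 6 h level. Its start site (peak12081, chr1:150578482-150580130) measured 51.2 and 63.7 CPM at 0 h and 72.1 and 61.5 at 6 h, which overlapped, and 22.9 and 25.1 at 72 h. The change at 6 h was 0.21 ± 0.15 and did not pass (edgeR, adjusted p = 0.27). Between 6 h and 72 h the site fell by 1.48 on the log2 scale, a call made under all 5 scalings, while the change from 0 h to 72 h was -1.26 ± 0.15 with TMM and 0.13 with loess offsets.

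Of the 19 MCL1 sites 8 rose and 3 fell at 6 h, 3 rose and 11 fell at 72 h, and between 6 h and 72 h none rose and 15 fell. Over all tested sites 23.4% rose and 16.8% fell at 6 h, 38.2% and 29.2% did so at 72 h, and 22.1% and 20.9% between the later times. Under all 5 scalings 5 of those 15 were called lower. The site 7456 bases from the start (peak12080, chr1:150571491-150572817, beyond the gene's 3′ end) measured 12.9 and 12.2 CPM at 0 h, 72.1 and 67.5 after 6 h, then 10.1 and 12.4 after 72 h. It rose by 2.47 ± 0.17 at 6 h (edgeR, adjusted p = 3.5e-10) and had a change of -0.15 ± 0.16 at 72 h (adjusted p = 0.42), which ran from -0.33 to 0.89 over the scalings and was called higher under 2 of them. At 6 h this site of 1327 bases held as many reads as the 1649-base site at the gene start.

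A second site beyond the 3′ end (peak12079, 10019 bases from the start) went from 10.1 and 14.1 CPM to 45.02 and 42.9 and back to 12.6 and 15.9. Upstream, the site at 32119 bases (peak12084) measured 6.89 and 6.45, then 33.7 and 39.8, then 18.6 and 19.7 CPM, and remained called higher at 72 h under all 5 scalings. These 3 sites were picked after their values were seen. By the naming rule, the site with the largest rise was 46750 bases upstream (peak12088), at 0.780 and 0.669, 8.10 and 7.56, and 6.63 and 8.19 CPM, with log2 fold changes of 3.43 ± 0.32 and 3.36 ± 0.31. The largest fall at 6 h, at a site 33848 bases downstream of the start (peak12074), was from 57.8 and 55.3 to 14.2 and 13.5 CPM and was called under all 5 scalings.

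**Figure D2:**
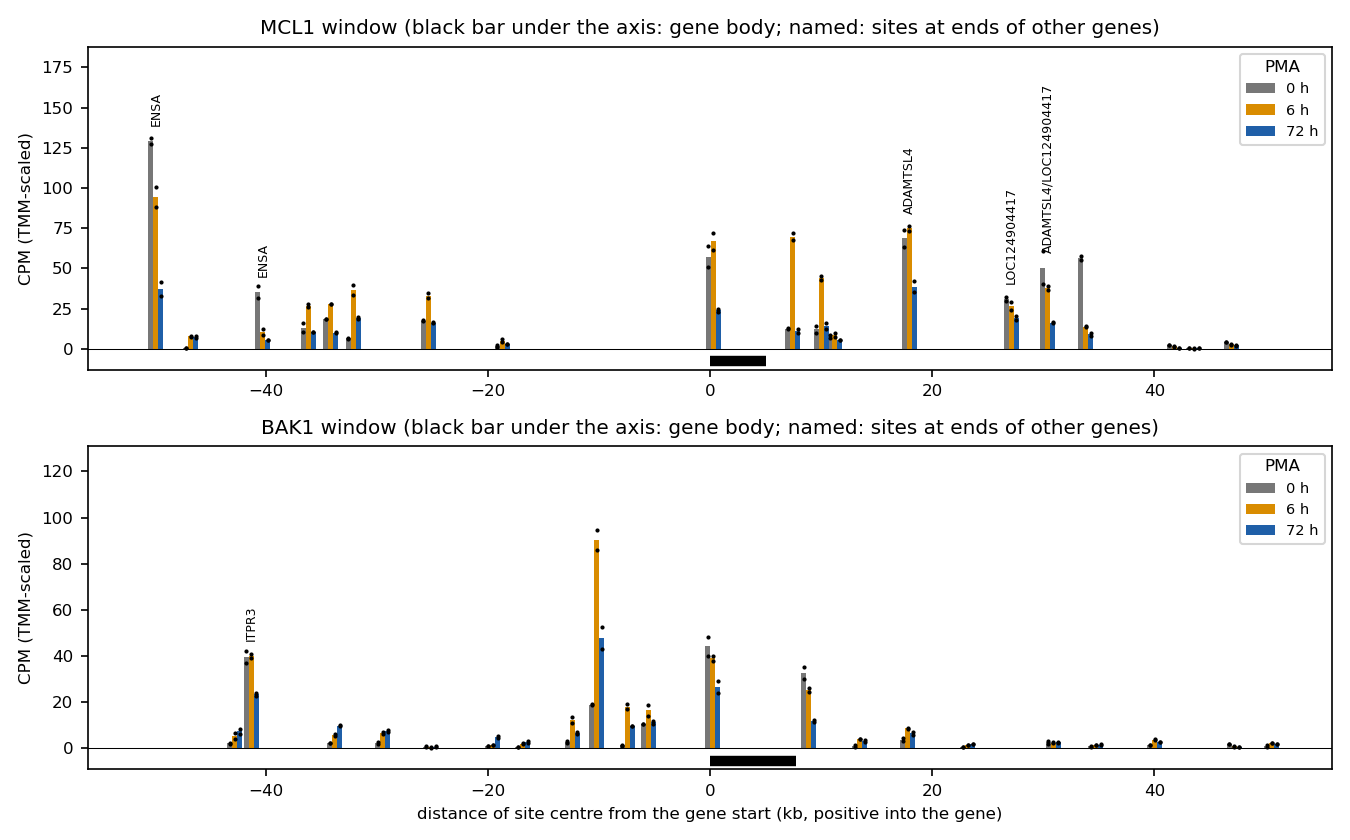
Accessibility across the MCL1 and BAK1 windows. Bars are mean CPM of each site at 0, 6 and 72 h against the distance of the site from the gene start in kb, and dots are libraries; sites within 1000 bases of an end of another gene carry that gene's name. The MCL1 site at 7456 bases is high only at 6 h, and the BAK1 site at -10216 bases is highest at 6 h and intermediate at 72 h.

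BAK1, which encodes the effector BAK, had the largest share of sites rising at 6 h of the 10 genes with TMM. Of its 21 sites 12 rose and none fell at 6 h, where 23.4% of all tested sites rose and 16.8% fell. At 72 h 13 BAK1 sites rose and 4 fell, beside 38.2% and 29.2% of all tested sites. The site of its window with the highest CPM averaged over the 6 libraries, 10216 bases upstream (peak142769, chr6:33589749-33591235), measured 19.0 and 18.5 CPM at 0 h, 94.7 and 85.8 after 6 h, then 43.1 and 52.5 after 72 h. At 6 h this site of 1487 bases held more reads than the 1314-base site at the gene start, and the 3 time points did not overlap. The log2 fold change was 2.262 ± 0.15 at 6 h and 1.35 ± 0.15 at 72 h (edgeR, adjusted p = 3.6e-10 and 8.6e-08), called under all 5 scalings. A neighbour 7452 bases upstream (peak142768) rose from 1.56 and 0.956 CPM to 19.3 and 16.9 and then stood at 9.45 and 9.86.

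The BAK1 start site (peak142766, chr6:33579357-33580670) did not take part in this rise. It measured 40.2 and 48.1 CPM at 0 h and 40.0 and 37.9 at 6 h, with a change of -0.18 ± 0.16 (edgeR, adjusted p = 0.36), and 23.7 and 29.1 at 72 h. The 72 h call depended on scaling: -0.74 ± 0.16 with TMM, 0.22 with TMM factors from shared peaks and 0.43 with loess offsets. Under all 5 scalings together, 11 of the 21 BAK1 sites were called higher and none lower at 6 h, where 18.3% of all tested sites were called higher and 8.09% lower in this way.

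BAX is the other effector. Of its 22 sites 4 rose and 11 fell at 6 h, and 4 rose and 15 fell at 72 h, beside 23.4% rising and 16.8% falling of all tested sites at 6 h and 38.2% and 29.2% at 72 h. Under all 5 scalings 3 of them rose and 2 fell at 6 h, and 1 rose and 4 fell at 72 h. Its start site (peak84992, chr19:48954205-48955212) measured 29.1 and 33.8 CPM at 0 h, 16.8 and 19.8 after 6 h, then 15.2 and 13.0 after 72 h, and was called lower under all 5 scalings at 6 h and under 4 at 72 h. One site 40478 bases upstream (peak84984) rose, from 3.12 and 3.35 to 6.31 and 12.1 and then 14.9 and 16.8 CPM. The BAX window is gene-dense, and 6 of its sites lay at ends of FTL, GYS1, RUVBL2 or DHDH, among which the site with the highest CPM averaged over the libraries went from 77.2 and 65.5 to 24.4 and 22.1 CPM at 72 h, called lower under 4 of the 5 scalings. Whether the BAX and BAK1 windows differed from each other in their change was not tested.

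Among the BH3-only genes, BBC3 opened at its annotated start against a window that closed. The start site (peak84705, chr19:47232514-47233104) measured 1.95 and 1.77 CPM at 0 h, 6.22 and 6.42 after 6 h, then 7.71 and 6.37 after 72 h. It rose by 1.77 ± 0.28 and 1.92 ± 0.27 (edgeR, adjusted p = 2.6e-05 and 2.1e-06), under all 5 scalings at both times. It is a weak site of 591 bases. A BBC3 body site of 2045 bases, 5663 bases into the gene (peak84702, picked after its values were seen), was at 93.2 and 92.3 CPM at 0 h, 48.4 and 64.9 after 6 h, then 32.3 and 33.7 after 72 h. Of 14 BBC3 sites 2 rose and 8 fell at 6 h, beside 23.4% and 16.8% of all tested sites. At 72 h 4 rose and 8 fell, beside 38.2% and 29.2%. Among the 14, 4 lay at ends of CCDC9, INAFM1 or SAE1. A site 29969 bases upstream (peak84709) fell from 9.42 and 4.59 to 1.53 and 1.99 CPM at 6 h and stood at 5.77 and 5.52 at 72 h, a rise between 6 h and 72 h of 1.63 ± 0.32 that was called under all 5 scalings.

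BCL2L11 closed at its start and opened upstream. The start site (peak93478, chr2:111120276-111121210) measured 47.5 and 52.7 CPM at 0 h, 31.0 and 26.5 after 6 h, then 15.9 and 11.9 after 72 h. It was called lower under all 5 scalings at both times, by -0.81 ± 0.17 and -1.85 ± 0.17 with TMM. The site 13984 bases upstream (peak93477, chr2:111106597-111107264) was at 0.455 and 1.24 CPM at 0 h, 6.22 and 6.42 after 6 h, then 8.05 and 8.35 after 72 h. Its log2 fold changes, 2.82 ± 0.34 and 3.19 ± 0.33 (edgeR, adjusted p = 8.6e-07 and 3.2e-08), were called under all 5 scalings. Of 17 sites 5 rose and 3 fell at 6 h, beside 23.4% and 16.8% of all tested sites. At 72 h 8 rose and 6 fell, beside 38.2% and 29.2%.

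PMAIP1, with TMM, changed least of the 11 start sites by 6 h. The site (peak79348, chr18:59899227-59900921) measured 28.4 and 24.5 CPM at 0 h and 25.9 and 26.4 at 6 h, a change of -0.02 ± 0.16, and 13.4 and 12.4 at 72 h. The fall at 72 h, -1.03 ± 0.17 with TMM, was called under 3 of the 5 scalings and came to -0.07 under the one that gave the smallest change. Far downstream, 53330 bases from the start, a site (peak79360) rose from 1.04 and 0.813 CPM to 3.16 and 4.11 and was at 2.59 and 3.02 at 72 h. Of 17 tested sites 4 rose and 2 fell at 6 h, beside 23.4% and 16.8% of all tested sites. At 72 h 6 rose and 1 fell, beside 38.2% and 29.2%.

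BMF has a pair of start sites. The outer one (peak56283, chr15:40108539-40109445) fell from 42.8 and 39.3 CPM to 30.8 and 27.3 at 6 h and 16.4 and 18.2 at 72 h, called lower under 2 of the 5 scalings at 6 h and 3 at 72 h. The inner one (peak56282, chr15:40106444-40107027) measured 14.8 and 8.61 CPM at 0 h, 5.37 and 5.19 after 6 h, then 6.86 and 8.38 after 72 h, and its fall at 6 h was called under all 5. Downstream of the gene, a site 45006 bases from the start (peak56273) rose from 1.105 and 0.478 to 2.56 and 2.85 and then 7.04 and 6.70 CPM, called higher in each of the 3 comparisons under all 5 scalings. Nearer the window's edge another (peak56267, 61780 bases from the start) went from 0.780 and 0.622 to 5.63 and 6.39 and then 4.89 and 4.74 CPM. Of 23 tested BMF sites 4 rose and 3 fell at 6 h, beside 23.4% and 16.8% of all tested sites. At 72 h 7 rose and 12 fell, beside 38.2% and 29.2%.

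Counted over all 10 genes, 50 sites rose and 47 fell at 6 h, 65 rose and 74 fell at 72 h, and 25 rose and 68 fell between 6 h and 72 h. Among all tested sites 23.4% rose and 16.8% fell at 6 h (40.1% either way), 38.2% rose and 29.2% fell at 72 h (67.4% either way), and 22.1% rose and 20.9% fell between 6 h and 72 h (42.9% either way). As shares of the 190 tested member sites, 26.3% rose and 24.7% fell at 6 h, and 34.2% rose and 38.9% fell at 72 h. The balance at 72 h rested on scaling. With RLE 56 member sites rose and 82 fell, beside 34.7% and 32.7% of all tested sites, and with total counts 82 rose and 56 fell, beside 48.0% and 19.5%. TMM factors from shared peaks gave 101 and 34, beside 57.7% and 11.05%, and loess offsets 48 and 64, beside 29.8% and 33.7%.

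Sites called the same way under all 5 scalings were also counted. At 6 h 45 member sites rose and 18 fell, against 18.3% rising and 8.09% falling of all tested sites. At 72 h 38 rose and 24 fell, against 28.1% rising and 9.46% falling of all tested sites, and between 6 h and 72 h 15 rose and 11 fell, against 15.2% and 3.66%. Of the 11 that fell between 6 h and 72 h in this way, 5 were MCL1 sites.

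At 6 h 19 anti-apoptotic sites rose and 20 fell of 76, with a median log2 fold change of -0.10, and 31 pro-apoptotic sites rose and 27 fell of 114, with a median of -0.05. At 72 h the counts were 23 and 28 with a median of -0.16, and 42 and 46 with a median of 0.02. From 6 h to 72 h they were 8 and 29, and 17 and 39, with medians of -0.10 and -0.34. All tested sites had medians of 0.05, 0.29 and 0.03 in these comparisons. Of them 23.4% rose and 16.8% fell at 6 h, 38.2% and 29.2% at 72 h, and 22.1% and 20.9% from 6 h to 72 h. Under all 5 scalings 17 anti-apoptotic sites rose and 10 fell at 6 h, and 28 pro-apoptotic sites rose and 8 fell. At 72 h these counts were 14 and 9, and 24 and 15, and from 6 h to 72 h 4 and 6, and 11 and 5. Over all tested sites the shares rising and falling in this way were 18.3% and 8.09%, 28.1% and 9.46%, and 15.2% and 3.66%. The difference between the classes was not tested. At 72 h the medians of single genes ran from -1.25 for BBC3 and -1.10 for BAX to 1.19 for BAK1 among pro-apoptotic members, and from -0.69 for MCL1 to 0.61 for BCL2 among anti-apoptotic ones.

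**Figure D3:**
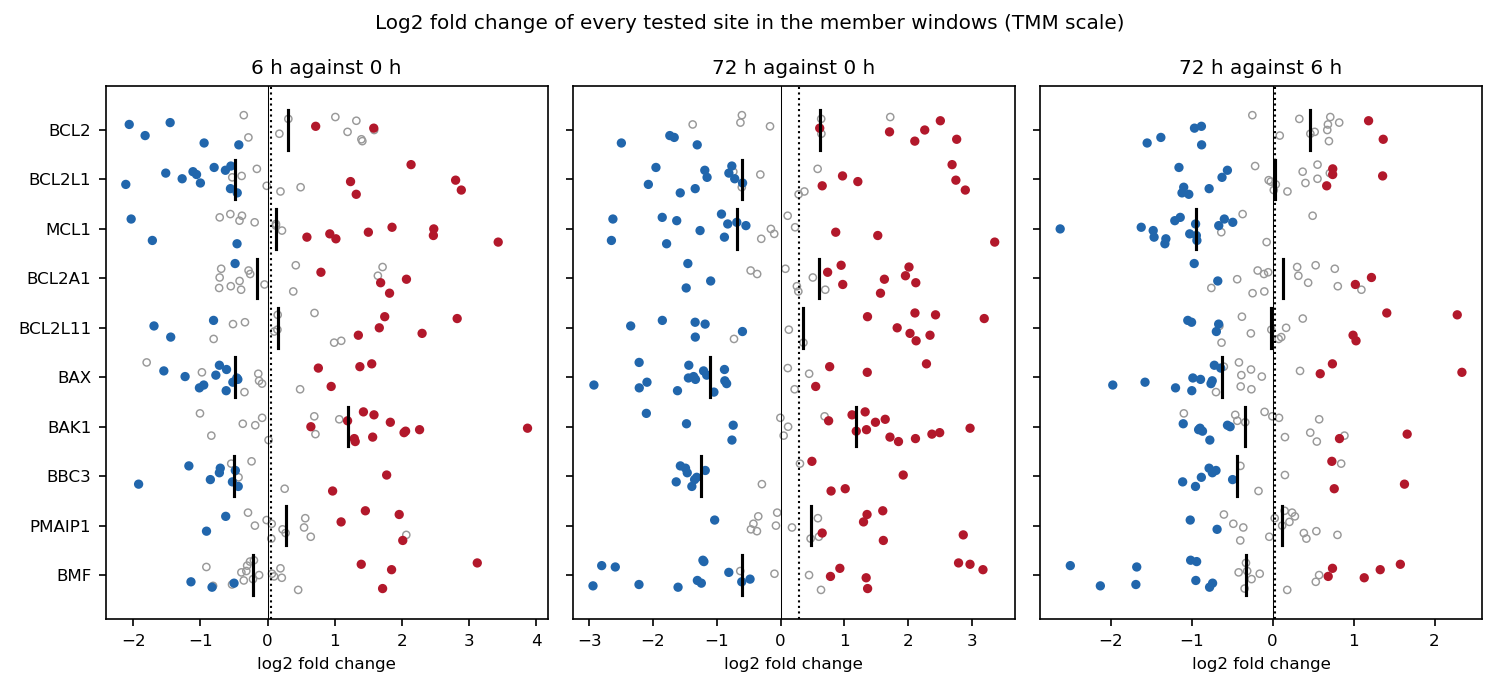
Log2 fold change (TMM scale) of all 190 tested member sites in the 3 comparisons. Each point is a site, red where called higher, blue where called lower and open where not called; black ticks are the median of a gene and the dotted line is the median of all tested sites. BAK1 has a median of 1.19 at both 6 h and 72 h and MCL1 sites lie mostly below 0 in 72 h against 6 h.

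Sites at ends of other genes were counted separately. Of 21 such sites none rose and 13 fell at 6 h, and 1 rose and 19 fell at 72 h. Of all start sites 46.2% fell at 6 h and 84.6% at 72 h. The sets are unlike, since the 21 were taken from either end of a gene. The 158 tested sites that were neither at a member's start nor at an end of another gene included 48 that rose and 28 that fell at 6 h, and 62 that rose and 46 that fell at 72 h. These were 30.4% and 17.7% at 6 h, beside 23.4% and 16.8% of all tested sites. At 72 h they were 39.2% and 29.1%, beside 38.2% and 29.2%. The median log2 fold changes of the 158 sites at 6 h and 72 h were 0.13 and 0.28, beside -0.44 and -1.39 at the ends of other genes. The difference between these sets was not tested.

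Summed over each window and scaled by TMM, accessibility fell for most members. Of 10 windows 1 rose (BAK1) and 6 fell at 6 h, none rose and 8 fell at 72 h, and none rose and 9 fell between 6 h and 72 h. Windows built the same way around 19311 protein-coding genes rose in 14.7% and fell in 47.3% of cases at 6 h, rose in 15.8% and fell in 71.3% at 72 h, and rose in 12.7% and fell in 68.0% between 6 h and 72 h. The median log2 change of a member window at 72 h was -0.68, beside -0.72 over all genes. Under TMM factors from shared peaks the direction at 72 h turned, with 6 member windows called higher and 1 lower, and over all genes 50.5% of windows were called higher and 17.8% lower.

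BAK1 summed to 161.9 and 180.6 CPM at 0 h, 300.8 and 274.1 after 6 h, then 182.3 and 199.3 after 72 h. The window rose by 0.75 ± 0.09 at 6 h (edgeR, adjusted p = 7.5e-06), under each of the 4 scalings that were run on windows, while its change at 72 h did not pass (0.16 ± 0.09, adjusted p = 0.12). The 72 h change was called higher under 2 of the 4, at 0.66 with total counts and 1.12 with TMM factors from shared peaks (edgeR, adjusted p = 3.3e-06 and 1.6e-10). MCL1 summed to 508.8 and 545.8 CPM at 0 h, 583.4 and 596.1 after 6 h, then 240.0 and 263.8 after 72 h. Its change was 0.16 ± 0.10 at 6 h (edgeR, adjusted p = 0.17), called higher under 2 of the 4 scalings at 0.30 with total counts and 0.48 with TMM factors from shared peaks (adjusted p = 0.0070 and 0.00036), and -1.23 ± 0.10 between 6 h and 72 h, a fall called under all 4 scalings. BBC3, with 475.4 and 411.4, 294.2 and 321.0, and 193.1 and 193.3 CPM, was called lower at 72 h under all 4.

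Within each library the counts of the pro-apoptotic windows were divided by those of the anti-apoptotic windows. A single scaling factor per library does not change this ratio. Loess offsets, which differ between sites, could change it and were not applied to it. The log2 ratio was 0.42 and 0.32 at 0 h, 0.26 and 0.30 after 6 h, then 0.56 and 0.52 after 72 h. The mean was lower by 0.09 at 6 h than at 0 h and higher by 0.17 at 72 h, with a pooled SD of 0.055 between libraries at both, and neither time overlapped 0 h. With 2 libraries against 2 an exact two-sided permutation test cannot go below p = 0.33, so neither difference was tested. The sign was not stable to how the ratio was built: from gene bodies alone the 72 h difference was -0.57, without sites at ends of other genes 0.03, and from median log2 CPM 0.35. At 6 h the same 3 ways gave -0.25, -0.24 and 0.29.

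**Figure D4:**
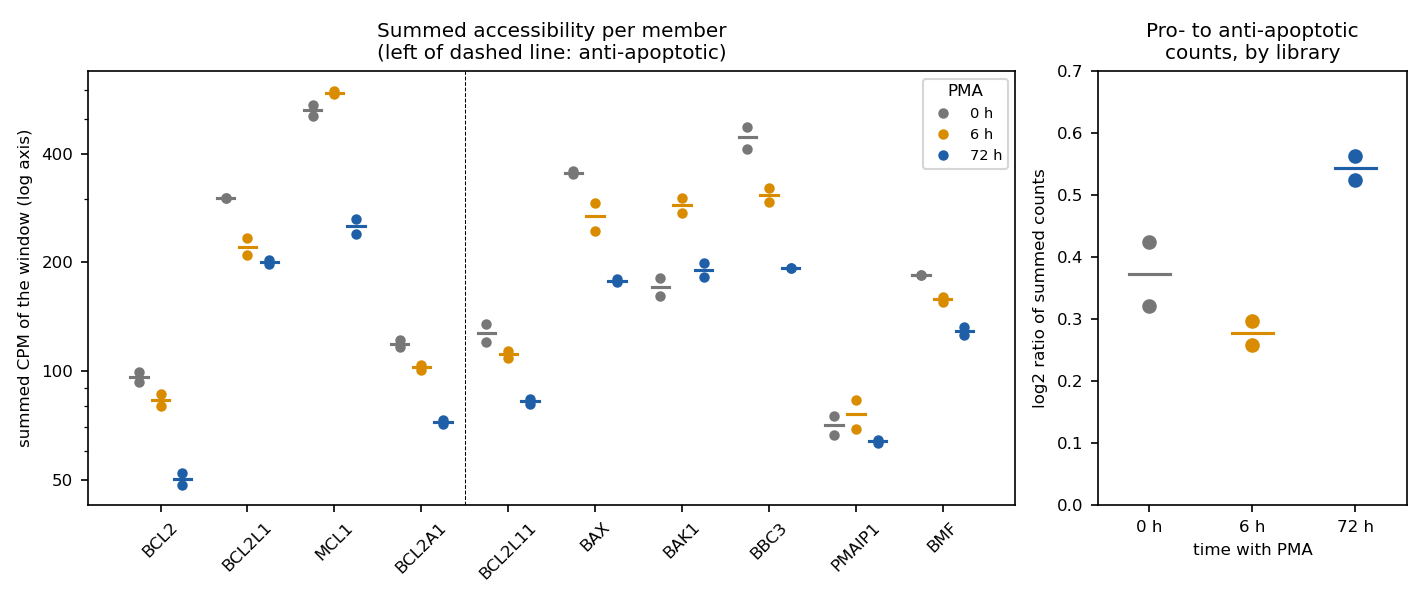
Summed accessibility per member window (left, CPM on a log axis, points are libraries and lines means) and the log2 ratio of pro- to anti-apoptotic counts per library (right). With TMM, BAK1 is the window that is called higher at 6 h, MCL1 is not called at 6 h and is called lower at 72 h, and the ratio is between 0.52 and 0.56 at 72 h.

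Other genes of the same pathway were examined through their start sites. Among other BCL2 family genes 7 had one, of which none rose and 3 fell at 6 h, and none rose and 6 fell at 72 h. The list of apoptosome genes, caspases and inhibitors of apoptosis gave 10 start sites, of which none rose and 4 fell at 6 h, and none rose and 10 fell at 72 h. Over the tested start sites of all genes, 4.59% rose and 46.2% fell at 6 h, and 5.18% rose and 84.6% fell at 72 h. The median log2 fold changes at 72 h were -1.26 for both lists, near the -1.31 of all gene starts. HRK, a BH3-only gene, had the largest fall of these at 72 h, from 6.04 and 4.59 to 1.48 and 0.684 CPM. CASP9, the initiator caspase of the apoptosome, followed, from 145.7 and 98.5 to 31.1 and 26.8 CPM. The site at BOK was the family member that did not pass at 72 h.

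Peak lists, which the authors called separately for each library, held more peaks in the member windows at 72 h. The 10 windows contained 88 and 102 peaks at 0 h, 97 and 129 after 6 h, then 172 and 175 after 72 h. These were 0.142% and 0.148% of all peaks in the 0 h lists and 0.124% and 0.123% in the 72 h lists, so the share of peaks near these genes did not go up. The increase was largest around BAK1, from 5 and 8 to 19 and 19 peaks, and around BCL2A1, from 5 and 4 to 14 and 16. MCL1 went from 13 and 15 to 18 and 18. The lists grow with the total number of peaks called, which differed between the libraries.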

How the data were processed

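The authors deposited raw counts per site and library, with their own log2 fold changes, adjusted p-values and class names; the 2 adjusted p-value columns of that deposited table were identical. Per the submitters' processing notes, the build was hg38 and the tools included Trim Galore 0.4.3, BWA 0.7.17, SAMtools 1.9, deepTools 3.0.1, MACS2, bedtools 2.26 and DESeq. Read filters and whether read ends were shifted for the transposase are not given in the sources used here. The deposited peak lists, in narrowPeak layout, hold the authors' score, fold enrichment ratio and −log10 p and q per peak, and were used only to count peaks.

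Members and lists were chosen with earlier results of these data known. Sites were named by rule: each member's start site (overlapping its RefSeq promoter entry, or within 1000 bases of the 5′ end for MCL1), the site of highest mean CPM, and the largest called rise and fall at 6 h and 72 h among sites of at least 1 CPM whose libraries did not overlap, 43 sites in all. Erythroid and megakaryocyte marker genes listed at the outset were not analysed here, and some genes of the pathway lists are not reported here. Distances are from the gene start to the site centre.

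Counts were fitted with edgeR 4.0.16 (R 4.3.3; quasi-likelihood, TMM, minimum count 10, Benjamini-Hochberg over 177759 sites), with the 3 groups and 6 libraries in 1 model. Windows used site counts summed per gene and the library sizes of the sites. The biological coefficient of variation was 0.166, and replicates differed by more than sampling noise (chi-square per degree of freedom 3.50 to 4.95), so none was counted as a copy. The fit was also run on simulated data. Gene positions were RefSeq GRCh38.p14, and for genes without a promoter entry the strand came from general knowledge. The alternatives are listed in the closing section; DESeq2 1.42.0 was one of them.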

Additional observations from a re-analysis of the deposited data

How the results depend on the processing

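Scaling turned the direction of some results, and depth limits weak sites: several that rose held under 1 CPM at 0 h. Requiring the same call under all 5 scalings, a count added after seeing the data, left 63, 62 and 26 member sites at 6 h, at 72 h and between them, of 97, 139 and 93. An adjusted p under 0.01 with a log2 change above 1 left 52 sites at 6 h and 32 between 6 h and 72 h. Of all 177759 tested sites it left 29123 higher and 12636 lower at 6 h, and 24939 and 15209 between 6 h and 72 h. Member windows fell to 0, 2 and 1 from 7, 8 and 9. Of 19311 gene windows 564 rose and 209 fell at 6 h, 1438 and 5885 at 72 h, and 658 and 809 between them. Gene bodies alone held 26, 40 and 26 called sites of 49 tested, beside 40.1%, 67.4% and 42.9% of all tested sites. Loess offsets gave 57 member sites between 6 h and 72 h, counted in either direction. Over all 177759 tested sites they called 30215 higher and 31561 lower in that comparison. TMM factors from shared peaks gave 3 windows at 6 h (all higher) and 5 between 6 h and 72 h. Of these 5, BCL2L1, BCL2L11, PMAIP1 and BMF were higher and MCL1 was lower. Over all gene windows this scaling called 32.5% higher and 8.67% lower at 6 h, and 40.7% and 12.6% between 6 h and 72 h. Leaving out each library in turn gave 78 to 95 sites at 6 h, 111 to 142 at 72 h and 56 to 98 between 6 h and 72 h (61 without 6 h library 2, 56 without either 72 h library), and 3 to 8, 8 to 9 and 7 to 9 windows (4 at 6 h without 0 h library 2, 3 without 6 h library 1). Where 1 library of a group remained, it was assumed to vary like the other groups. The log2 ratio of pro- to anti-apoptotic counts then ran from -0.15 to -0.04 at 6 h and from 0.12 to 0.22 at 72 h. For the ratio, gene bodies alone gave -0.25 and -0.57 at 6 h and 72 h, omission of sites at ends of other genes -0.24 and 0.031, and median log2 CPM 0.29 and 0.35. The causes were not tested.

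A named site was counted as turned only where its change was called with TMM or under the other setting. Sign changes at sites called under neither were not counted. Sites turned in this sense did so with loess offsets or with TMM factors from shared peaks. With loess the change at 72 h was 0.13 at MCL1 peak12081, 0.0027 at MCL1 peak12089, 0.057 at BCL2A1 peak59813, 0.43 at BAK1 peak142766 and 0.31 at BBC3 peak84710, and at 6 h it was 0.11 at MCL1 peak12089 and 0.085 at BBC3 peak84710. With factors from shared peaks the change at 72 h was 0.22 at BAK1 peak142766, 0.66 at BBC3 peak84709 and 0.34 at BMF peak56282. DESeq2, RLE, total counts, no filter and the stricter threshold turned no named site in this sense.

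The replicate block gave 102, 140 and 96 called sites and 9, 9 and 10 windows. Over all 177759 sites 42730 rose and 32262 fell at 6 h, 68570 and 52658 at 72 h, and 40364 and 39160 between them. Over 19311 gene windows 3168 rose and 10118 fell at 6 h, 3174 and 13938 at 72 h, and 2594 and 13455 between them. Libraries sharing a number deviated together only weakly (r of 0.082, 0.053 and 0.085), so the numbers were not taken to pair them.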

Other observations

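The authors' deposited table also gives each site a class by time and direction. It puts 160 of the 193 member sites (82.9%) in the class static, 21 in upLate, 6 in downEarly, 4 in upEarly and 2 in downLate, beside 79.2% static over all sites. The class names did not follow the sign of the deposited fold changes. Of the 21 upLate member sites, 10 had in the authors' deposited table a negative log2 fold change at 72 h, and of the 6 downEarly sites 2 had a positive one at both times. The BCL2L11 start site is upLate there with deposited log2 fold changes of -0.93 and -2.03, and the BCL2L11 site 13984 bases upstream is downEarly with 2.62 and 2.99. Over all sites of the authors' deposited table, 71.1% of upLate and 71.9% of downLate sites had a positive value at 72 h, so the class names were used for nothing else here.

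The windows around other family members included 2 that opened at both times. BCL2L10, an anti-apoptotic relative, summed to 58.6 and 48.6 CPM at 0 h, 101.0 and 110.6 after 6 h, then 96.5 and 104.4 after 72 h. BCL2L14 went from 9.68 and 11.3 to 19.6 and 27.2 and then 24.4 and 26.1 CPM. The other 8 of the 10 listed family windows fell at 72 h, with BCL2L2, the gene of BCL-W, going furthest, from 469.1 and 515.2 to 154.4 and 179.1 CPM. These windows use the TMM scale, on which 71.3% of all gene windows fell.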
